A study of Homo sapiens with 6 samples.

Results

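The genes described here encode the protein components of the cytosolic ribosome. They were chosen by symbol, as RPL or RPS followed by a number, the stalk genes RPLP0, RPLP1 and RPLP2, and RPSA, leaving out the RPS6K kinases, pseudogenes and Y-linked genes. That gave 83 of the 16625 genes measured, 51 of the large (60S) subunit and 32 of the small (40S) subunit. The rule uses symbols alone, with no measured value, although the set was proposed with earlier results of these data known. Expression was measured by sequencing polyA RNA from neurons grown from human induced pluripotent stem cells (iPSCs). Of 6 libraries, 3 came from PEDS1 knockout neurons and 3 from control neurons. PEDS1 is the desaturase that forms the vinyl ether bond of plasmalogens, a class of ether lipids. Both groups come from lines derived from the iPSC line UCSFi001-A. Both carry, at the AAVS1 safe-harbor site, an NGN2 gene switched on by doxycycline, which turns the iPSCs into neurons. The neurons were between day 10 and day 14. The labels give 1 line name per group, so an effect of the genotype and a difference between these lines cannot be told apart. Nothing in the labels says that replicates of a group were grown separately, so each p-value measures only the spread between libraries, and that spread may be technical.

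A cytosolic ribosome holds 1 copy of most of these proteins, and cells make them in matched amounts. Their messenger RNAs are among the most abundant in most cells. Most begin with a C followed by a run of pyrimidines, the 5′ terminal oligopyrimidine (TOP) tract. The kinase mTOR controls translation of TOP messages through the proteins 4E-BP and LARP1. In neurons, ribosomal protein messages are also carried into axons and dendrites. Several human genes of the set, RPS19 among them, are mutated in Diamond-Blackfan anaemia, and variants of RPL10 on the X chromosome occur in neurodevelopmental disorders.

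The libraries held 28773664, 17996634 and 25213127 reads in PEDS1 knockout replicates 1, 2 and 3, and 25275584, 30887946 and 44573013 reads in control replicates 1, 2 and 3. PEDS1 itself had normalized counts of 836, 765 and 1349 in the PEDS1 knockout libraries, against 1360, 1347 and 1399 in the control libraries. The library labelled PEDS1 knockout replicate 3 therefore lay at the level of the lowest control for the targeted gene. Over all libraries the log2 fold change was -0.52 ± 0.17 (SE, n = 3 each), which missed the threshold (limma adjusted p = 0.0725). Exact permutation of the labels, two-sided, gave p = 0.2, and 3 against 3 cannot go below 0.1. With that library left out the fold change was -0.77 (limma adjusted p = 0.000147). The place of the edit in the gene is a detail not given in the sources used here. Results that rest on this library are therefore given with and without it. All 15 neuron markers were measured, with summed normalized counts of 489490 to 517790 in knockout libraries and 436310 to 448790 in control libraries. TUBB3, a neuronal tubulin, was low among them, at 137, 136 and 202 in knockout libraries and 293, 253 and 220 in control libraries.

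The sequence around the transcription start was available for 67 of the 83 genes in the RefSeq promoter table (GRCh38.p14). In 43 of the 67 (64.2%) the first transcribed base was a C followed by at least 4 C or T, against 4.07% of all 35116 promoters in the table and 5.29% of the 11677 promoters of genes measured here. The 7 genes below passed the test described later. Each line gives 40 bases before and 20 bases after the annotated start, 5′ to 3′ on the gene's strand. Capitals mark the run of C or T that begins at the annotated start.
RPS27 (chr1:153990722-153990781, plus strand): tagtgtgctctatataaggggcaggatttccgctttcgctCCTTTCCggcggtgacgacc
RPL36A (chrX:101390971-101391030, plus strand): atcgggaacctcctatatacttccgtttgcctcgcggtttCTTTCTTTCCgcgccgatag
RPL10 (chrX:154398025-154398084, plus strand): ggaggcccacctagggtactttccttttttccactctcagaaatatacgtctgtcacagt
RPS27L (chr15:63157458-63157517, minus strand): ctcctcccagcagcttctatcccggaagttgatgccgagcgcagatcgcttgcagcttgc
RPLP1 (chr15:69452778-69452837, plus strand): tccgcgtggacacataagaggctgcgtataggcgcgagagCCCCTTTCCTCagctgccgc
RPLP2 (chr11:809927-809986, plus strand): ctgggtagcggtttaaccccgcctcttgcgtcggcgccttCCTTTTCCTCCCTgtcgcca
RPS19 (chr19:41860215-41860274, plus strand): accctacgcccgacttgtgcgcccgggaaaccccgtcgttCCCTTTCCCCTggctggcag
RPS27, RPL36A, RPLP1, RPLP2 and RPS19 begin with a C and a pyrimidine run of 7 to 13 bases. RPL10 and RPS27L have no run at the annotated start. A start annotated a few bases off would hide or create a run. The next 4 lines show genes whose messages did not pass the test, for comparison: RPL14 and RPL15, with the highest and third-highest fold change, RPS6, and RPL36AL, the paralog of RPL36A.
RPL14 (chr3:40457299-40457358, plus strand): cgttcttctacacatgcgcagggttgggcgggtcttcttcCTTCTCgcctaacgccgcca
RPL15 (chr3:23916505-23916564, plus strand): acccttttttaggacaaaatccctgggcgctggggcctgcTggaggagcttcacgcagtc
RPS6 (chr9:19380217-19380276, minus strand): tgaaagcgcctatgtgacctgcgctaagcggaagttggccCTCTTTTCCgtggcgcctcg
RPL36AL (chr14:49620607-49620666, minus strand): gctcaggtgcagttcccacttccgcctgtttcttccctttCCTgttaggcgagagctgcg
RPL14 and RPS6 also begin with a pyrimidine run, so genes that passed and genes that did not share this start. Among all 67 genes, 5 of the 43 with a tract at the start passed the test, and 2 of the 24 without one did. Their median log2 fold changes were -0.18 with the tract and -0.18 without it. Other motifs, searched as letters on both strands of the 300 bases around the start, included the ETS-type CCGGAAG, in 34.3% of the genes, 10.3% of all promoters and 18.3% of promoters of measured genes. AAGATGGC, the letters of a YY1 site, was in 10.4% of the genes, 2.89% of all promoters and 5.16% of those of measured genes. GGGCGG, an SP1-type motif, was in 53.7% of the genes, between 45% of all promoters and 69.1% of those of measured genes. TATAAA was in 8.96% of the genes, between 11.5% of all promoters and 5.83% of those of measured genes. For these last motifs the direction thus turns with the promoters chosen for comparison. A match is a match of letters and was not tied to binding.

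Ribosomal protein messages were mostly slightly lower in PEDS1 knockout neurons than in control neurons, most of all in 1 knockout library, and few passed the test. Of the 83 genes, 8 fell and 0 rose (limma on log2(normalized count + 1), adjusted p under 0.05, n = 3 each). Of all 16625 genes, 7.69% fell and 5.95% rose by the same rule, 13.6% in either direction, so the share of these genes called is near the background. On the recovered reads edgeR called 8 lower and 0 higher, where it called 7.98% of all genes lower and 5.54% higher. The authors' deposited table had 11 lower and 0 higher, where 8.61% of all genes were lower and 7.66% higher. The 8 ranged from -0.31 to -0.81 on the log2 scale. The median log2 fold change was -0.18 over the 83 genes and -0.01 over all genes, and 79 of 83 lay below 0, against 51% of all genes. With the library labelled PEDS1 knockout replicate 3 left out, the median of the set was -0.08. The medians were alike in both subunits, -0.18 over 51 genes of the 60S and -0.19 over 32 genes of the 40S, and 4 genes of each fell. Every knockout library lay below every control library in 24 genes (18.2% of all genes), and above in 1, RPL14 (19% of all genes).

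**Figure D1:**
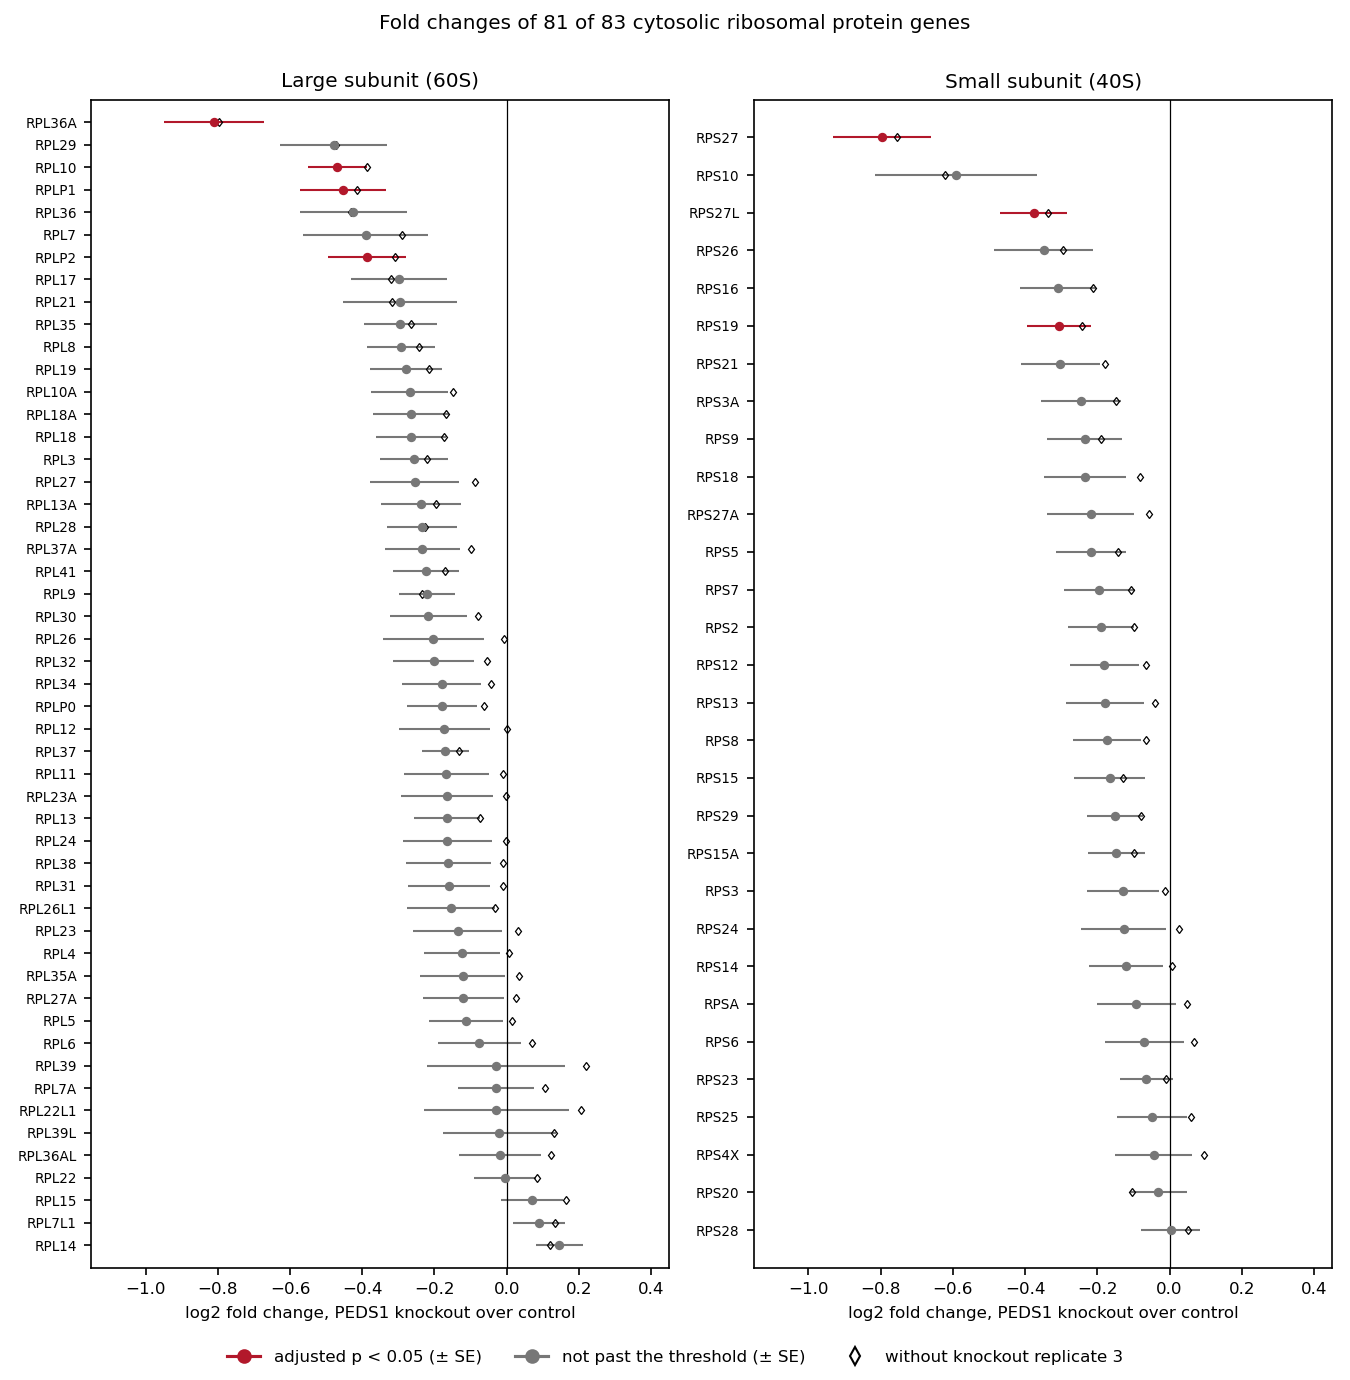
Log2 fold change of PEDS1 knockout over control for 81 of the 83 genes, large subunit on the left and small subunit on the right; points with bars are the estimate ± SE, red where adjusted p is under 0.05, and open diamonds are the estimate without knockout replicate 3. Of the filled points 77 lie left of 0, and most diamonds lie nearer to 0 than the points.

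RPS27, a zinc-finger protein of the 40S subunit (chr1:153990755-153992155), had the smallest adjusted p. Its normalized counts were 77.9, 102 and 81.7 in PEDS1 knockout libraries, against 144, 155 and 155 in control libraries. The highest knockout library stayed well under the lowest control library. The log2 fold change was -0.80 ± 0.14 (SE, n = 3 each; limma adjusted p = 0.0059). RPL36A, a 60S protein (chrX:101390824-101396154), stood at 52.9, 57.2 and 53.3 in knockout libraries, against 88.2, 104 and 96.9 in control libraries. The knockout libraries were tight and all lower. It fell by 0.81 ± 0.14 on the log2 scale (limma adjusted p = 0.00593). RPL36A and RPS27 had the lowest fold changes of the set and stayed past the threshold with knockout replicate 3 left out, at -0.75 for RPS27 and -0.80 for RPL36A (limma adjusted p = 0.00873 and 0.00819). They are also weakly covered, a point taken up with the shared sequence further on.

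RPL10, a 60S protein that sits near the site where peptide bonds form (chrX:154389955-154409168), was the clearest of the abundant genes. It had normalized counts of 3215, 3345 and 2767 in knockout libraries, against 4319, 4311 and 4242 in control libraries. Means were 3109 ± 303 in knockout and 4291 ± 42.5 in control (SD, n = 3 each), so the spread was wider in knockout. It fell by 0.47 ± 0.08 on the log2 scale (limma adjusted p = 0.00635), and by 0.39 with knockout replicate 3 left out (limma adjusted p = 0.00127). RPL10 and RPS27 were past the threshold in all 24 alternative settings. The antisense gene AC245140.2 overlaps 30.2% of the RPL10 transcript windows; the kit marks strand, but whether counting used it is a detail not given in the sources used here.

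RPS27L, a paralog of RPS27 and a known target of p53, fell as well. Its normalized counts were 344.4, 306 and 299.5 in knockout libraries, against 406, 402 and 424 in control libraries. The groups did not overlap, and the change was -0.38 ± 0.09 (limma adjusted p = 0.0271). The stalk, which recruits the elongation factors and the GTPase step of translation, is built by RPLP0 with RPLP1 and RPLP2. RPLP1 had 2762, 3382 and 2821 in knockout libraries, against 4668, 4249 and 3411 in control libraries, so the highest knockout and the lowest control library nearly met. It fell by 0.45 ± 0.12 (limma adjusted p = 0.0345). RPLP2 had 3879, 4662 and 3613 in knockout libraries, against 5762, 5424 and 4669 in control libraries. There the groups were apart by less than the spread within either, and the change was -0.39 ± 0.11 (limma adjusted p = 0.0415). RPLP0 had 9984, 10737 and 8121 in knockout libraries, against 10579, 11006 and 10870 in control libraries. Knockout replicate 2 lay among the controls, and the log2 fold change of -0.18 ± 0.10 did not pass (limma adjusted p = 0.231).

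RPS19, a 40S protein, was just inside the threshold. It had 6738, 7780 and 6352 in knockout libraries, against 9141, 8554 and 8049 in control libraries, and changed by -0.31 ± 0.09 (limma adjusted p = 0.0452). RPL29, a small 60S protein, was just outside at -0.48 ± 0.15 (limma adjusted p = 0.0582). Its counts were 899, 1236 and 1038 in knockout libraries, against 1773, 1471 and 1200 in control libraries, and knockout replicate 2 lay above control replicate 3. RPLP1, RPLP2 and RPS19 lost the call once each library's trends over GC content and length had been removed (limma adjusted p = 0.0745, 0.241 and 0.347). RPL9 and RPL37 gained one there (limma adjusted p = 0.0379 and 0.0277), and RPL10, RPL36A, RPS27 and RPS27L were among those that kept it. In all 7 fell and 0 rose. Of the 16046 genes with an annotated length, 7.23% fell and 8.66% rose there.

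**Figure D2:**
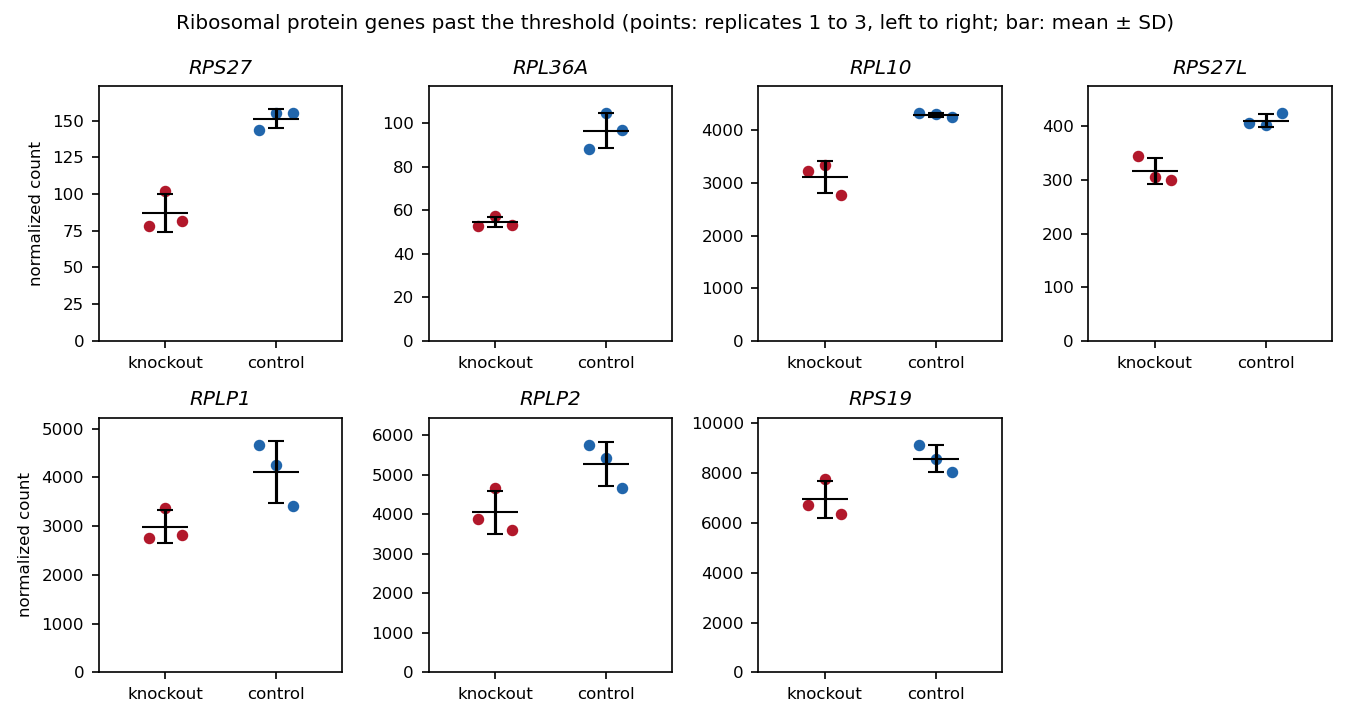
Normalized count of 7 of the genes past the threshold, PEDS1 knockout on the left and control on the right of each panel; points are replicates 1 to 3, and the bar is the mean ± SD. In all 7 panels every knockout point lies under every control point, with the narrowest gap in RPLP2.

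The members known for other tasks did not pass. RPL5 and RPL11 form, with 5S RNA, the particle that binds MDM2 when ribosome assembly is disturbed. RPL5 averaged 11098 ± 1621 in knockout libraries and 11923 ± 576 in control libraries (SD, n = 3 each; log2 fold change -0.11 ± 0.10, limma adjusted p = 0.48). RPL11 averaged 9575 ± 1728 in knockout libraries and 10629 ± 236 in control libraries (-0.17 ± 0.12, limma adjusted p = 0.353). In both, knockout replicate 3 was the lowest library and the other knockout libraries lay among or near the controls. RPS6, the 40S protein that S6 kinases phosphorylate, had 10488, 10774 and 7978 in knockout libraries, against 9632, 10268 and 10535 in control libraries. RPSA, also known as a laminin receptor, had 2566, 2495 and 1890 in knockout libraries, against 2399, 2427 and 2514 in control libraries. In RPS6 knockout replicate 1 lay among the controls and replicate 2 above them, in RPSA replicate 2 lay among them and replicate 1 above, and in both knockout replicate 3 lay under them.

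The highest fold changes belonged to RPL14, RPL7L1 and RPL15, none past the threshold. RPL14, a 60S protein, had 9995, 9788 and 10439 in knockout libraries, against 8780, 9045 and 9492 in control libraries (log2 fold change 0.15 ± 0.07, limma adjusted p = 0.158). It was the only gene of the 83 with every knockout library above every control. RPL7L1, a paralog of RPL7, had 3251, 3318 and 2988 in knockout libraries, against 2917, 2962 and 3097 in control libraries, and overlapped (0.09 ± 0.07, limma adjusted p = 0.413). RPL15 averaged 21009 ± 2319 in knockout libraries and 19944 ± 625 in control libraries (0.07 ± 0.09, limma adjusted p = 0.613). With knockout replicate 3 left out it rose by 0.16 (limma adjusted p = 0.0349).

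One library carried much of the set's shift. Relative to the control mean, the median gene of the set stood at -0.10, -0.03 and -0.41 (log2) in PEDS1 knockout replicates 1, 2 and 3, and at -0.02, 0.01 and 0.01 in control replicates 1, 2 and 3. In 62 of the 83 genes the library labelled PEDS1 knockout replicate 3 was the lowest of the 6, against 23.3% of all genes. The set took 1.49, 1.59 and 1.21% of reads in the knockout libraries, against 1.62, 1.64 and 1.61% in the control libraries. The mean shares were 1.43 ± 0.20% in knockout and 1.62 ± 0.01% in control (SD, n = 3 each). Without that library 60 of 83 genes had a log2 fold change below 0. Then 8 fell and 1 rose, RPL15, where 11.1% of all genes fell and 10.4% rose. Of those 8, 7 also fell over all libraries; RPL9 (-0.23, limma adjusted p = 0.0417) was added and RPLP2 (-0.31, limma adjusted p = 0.0534) dropped out. Without knockout replicate 2, whose set median lay nearest to the controls, 18 fell and 0 rose, where 5.23% of all genes fell and 3.85% rose. Without control replicate 1 or without control replicate 2, 3 fell (RPL10, RPL36A and RPS27) and 0 rose. Calls over all genes were fewer there too: 2.15% fell and 1.59% rose without control replicate 1, and 2.02% fell and 1.49% rose without control replicate 2. Reads of the mitochondrial genome were also fewer, at 2.76, 1.44 and 1.76% in knockout libraries and 3.13, 3.00 and 2.88% in control libraries. All knockout libraries were lower, replicate 2 most of all, whose ribosomal protein share was the nearest to the controls. With mitochondrial reads left out of the totals the ribosomal protein share was 1.46 ± 0.20% in knockout and 1.67 ± 0.01% in control (SD, n = 3 each), and the part of mitochondrial reads or RNA quality in the other values was not tested. The library with the lowest set level is the one whose PEDS1 level lay among the controls; their relation was not tested.

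**Figure D3:**
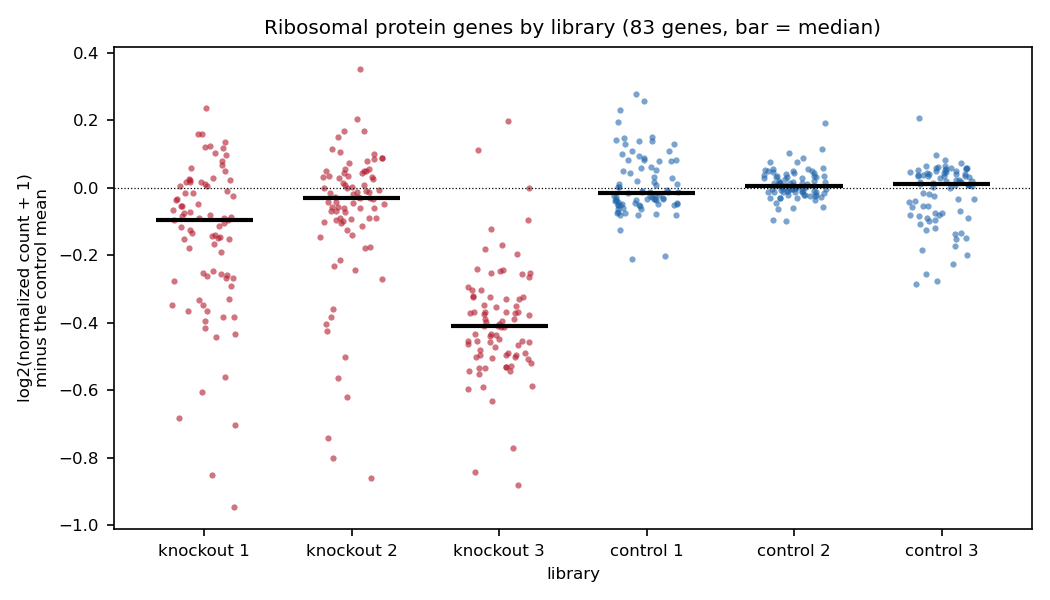
Each point is 1 of the 83 genes in 1 library, as log2(normalized count + 1) minus the mean of the 3 control libraries; knockout libraries (red) stand left of control libraries (blue) and the bar is the median. The bar of knockout replicate 3 sits at -0.41 and the other 5 bars between -0.10 and 0.01.

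Within the set, libraries also differed by GC content. Across the 83 genes, Pearson's r between GC content of the transcript and the deviation from the control mean was -0.43, -0.02 and -0.00 in knockout replicates 1, 2 and 3, and 0.53, 0.11 and -0.58 in control replicates 1, 2 and 3. These are descriptions over genes that share each library, and control values enter the mean they are set against. Control replicates 1 and 3 thus had r at least as far from 0 as knockout replicate 1. The r value tells how closely genes follow a line, not how far they shift. The log2 fold change had r = -0.20 with GC content (Spearman's rho = -0.31). The 27 genes of highest GC content had a median log2 fold change of -0.27, or -0.19 without knockout replicate 3, and the 27 of lowest GC content -0.16, or -0.01 without it. With GC and length trends removed the median of the set was -0.13, with 75 of 83 below 0 and a median over all genes of 0.02. With trends removed and knockout replicate 3 left out as well, the median of the set was -0.04, with 7 fallen and 3 risen, where 10.9% of all genes fell and 17.7% rose.

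**Figure D4:**
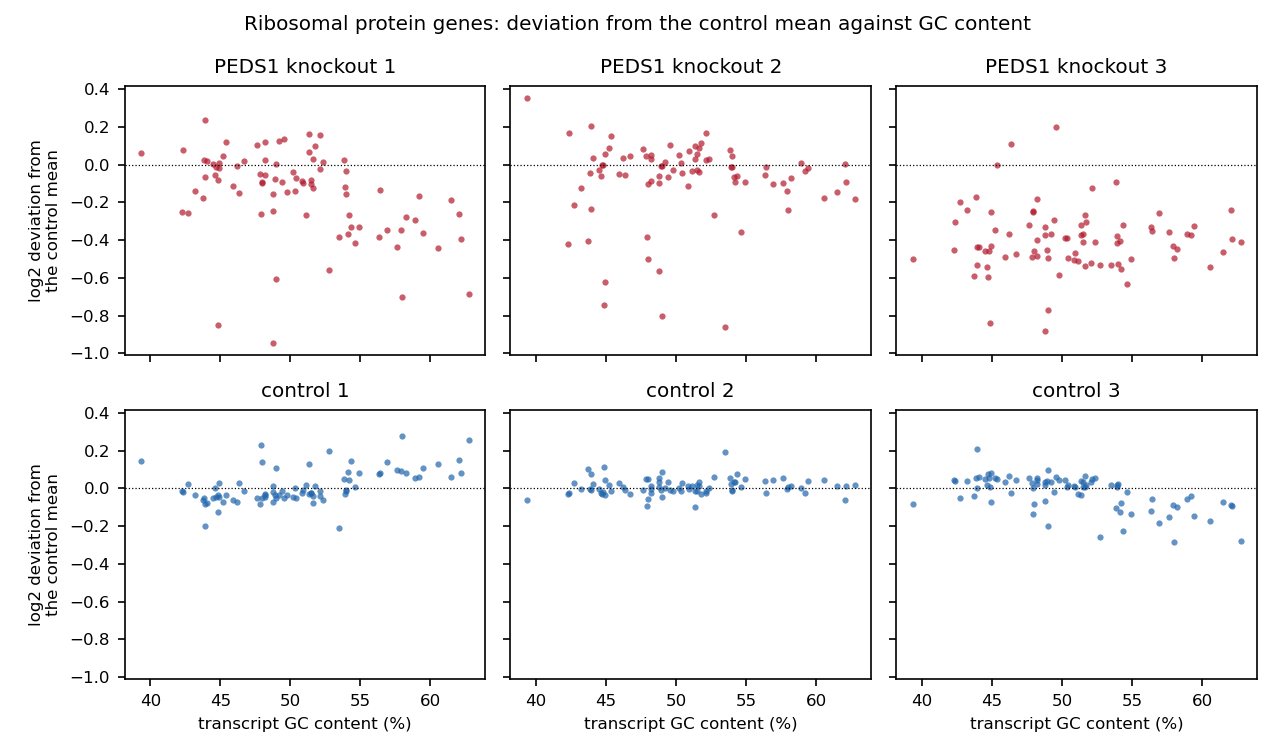
Deviation of each of the 83 genes from the control mean (log2) against the GC content of its transcript, 1 panel per library, knockout libraries in the upper row and control libraries in the lower. Points slope upward in control 1 and downward in control 3 and knockout 1, and lie as a flat band below 0 in knockout 3.

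Levels per kb of transcript ranged from 31.7 to 25621 normalized counts in knockout libraries and from 48.5 to 29195 in control libraries. Over all libraries the highest included RPL37A, RPL15 and RPL37. RPL37A, a 60S protein, stood at 25046 ± 3857 per kb in knockout and 29195 ± 467 in control (SD, n = 3 each). RPL15 stood at 25621 ± 2828 in knockout and 24323 ± 763 in control, and RPL37 at 14751 ± 645 in knockout and 16585 ± 402 in control. RPL37A and RPL15 lay within their spread of each other in knockout libraries, while in control libraries RPL37A stood above RPL15 by more than the SD of each. The lowest were RPS10 at 31.7 ± 5.44 per kb in knockout and 48.5 ± 6.89 in control, and RPL7 at 43.8 ± 6.46 in knockout and 57.4 ± 3.74 in control. RPL36A stood at 78.8 ± 3.42 in knockout and 140 ± 11.7 in control, and RPS26 at 120 ± 19.6 in knockout and 152 ± 13.0 in control. A limit of the counting bears on levels of such genes, and its part in these values was not tested.

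That limit is sequence shared with other genes. For each gene 1 transcript, annotated as principal, was cut into every 100-base window, the length of the reads. A window counted as shared where another GENCODE 29 gene holds the same letters. Levels per kb use the median length of the gene's protein-coding transcripts instead. The 2 lengths can differ, as in RPL27A (4916 bases against 681.5), so the shared percentage depends on the transcript chosen. In the 38 genes with under 5% of windows shared, the median control level was 9132 per kb. In the 32 genes with 5 to 50% it was 5715, and in the 13 with 50% or more it was 421. Across the 83 genes, control level per kb and shared share had Pearson's r = -0.62 (Spearman's rho = -0.51), a description over genes of the same libraries. Single genes lay off this relation. RPL26 shared 55.3% of its windows and stood at 7150 per kb in control libraries. RPL39L shared 0% and stood at 137, and RPS26, among the lowest, shared 26.5%. RPL36A shared 77.3% of its windows, chiefly with the readthrough gene RPL36A-HNRNPH2 at the same place and with a pseudogene on chromosome 11. RPS27 shared 60%, with sequence elsewhere in the genome. RPS10 shared 80.6% (readthrough gene RPS10-NUDT3) and RPL17 86.0% (RPL17-C18orf32). Reads in such windows can be split between genes or left out by the counting, so the levels of these genes, and which copy a change belongs to, are uncertain.

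The genes with 50% or more of windows shared had a median log2 fold change of -0.30, and 3 of the 13 fell. The 38 with under 5% had a median of -0.19, and 4 fell: RPS27L, RPLP1, RPLP2 and RPS19. The 32 between had a median of -0.17, and 1 fell, RPL10. Without knockout replicate 3 the medians were -0.29 for the first class, -0.08 for the 38 genes and -0.05 for the 32 between. Thus the genes of much shared sequence kept their median without that library, while the other classes moved toward 0; the difference between classes was not tested.

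**Figure D5:**
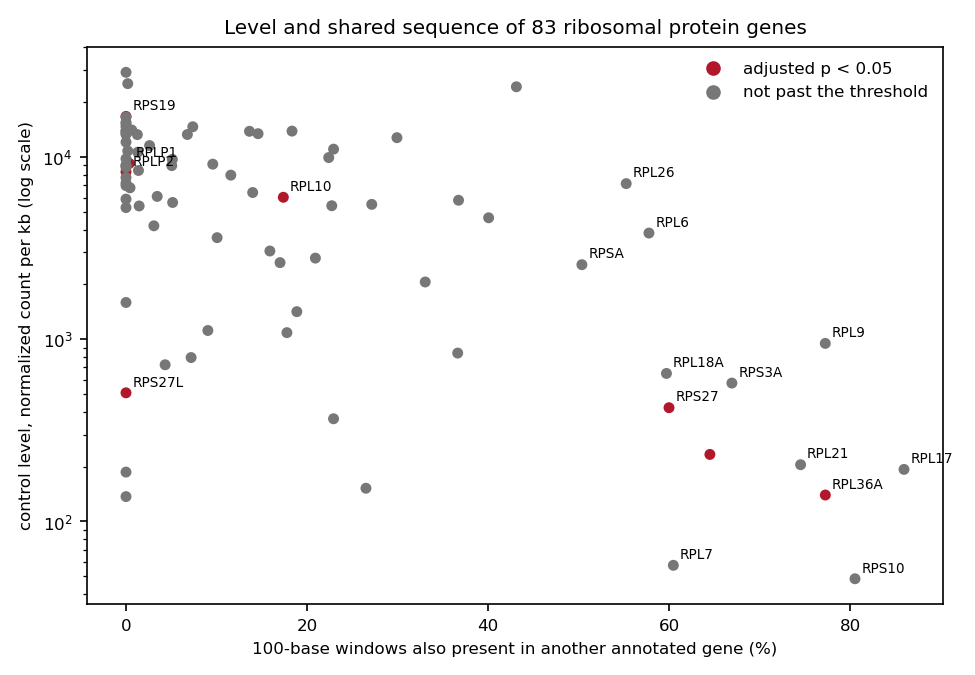
Control level in normalized counts per kb (log scale) against the percentage of 100-base windows that another annotated gene also holds, 1 point per gene, red where adjusted p is under 0.05. Most genes with 50% or more shared are named, and their median level is 421 against 9132 for genes under 5%; RPS27 and RPL36A lie among the low, highly shared points.

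Of 56 ribosomal protein pseudogenes measured, 1 fell and 0 rose, with a median log2 fold change of -0.23 (-0.09 without knockout replicate 3). Their summed normalized counts were 2879 to 3334 in knockout libraries and 3364 to 3421 in control libraries. Of the 56, 50 averaged under 100 normalized counts.

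The set holds 6 paralogs, genes closely related to a core gene. Whether their products take the place of the core protein in the ribosome was not examined. The difference between paralogs in their response was compared in 6 pairs, by an exact two-sided permutation test on the per-library log2 difference, where 0.1 is the smallest p possible. RPL36A fell relative to RPL36AL by 0.79 ± 0.15 (log2, SE, n = 3 each), the widest gap, with p = 0.1 by the exact permutation test and 0.2 adjusted over the pairs. RPL36AL had 1255, 1334 and 962 in knockout libraries, against 1172, 1170 and 1222 in control libraries. Knockout replicates 1 and 2 lay above every control library and knockout replicate 3 below every one. RPL7 against RPL7L1 (-0.48 ± 0.11) and RPS27 against RPS27L (-0.42 ± 0.16) had the same exact permutation p of 0.1, and 0.2 adjusted. In RPL22 against RPL22L1 the difference was 0.02 ± 0.20, in RPL26 against RPL26L1 -0.05 ± 0.08 and in RPL39 against RPL39L -0.01 ± 0.20. The exact permutation p of these 3 pairs was 0.9, 0.7 and 0.9, and their intervals do not show that the paralogs act alike. In the 3 pairs with the wide gaps the core gene shares 60% or more of its windows with other genes, so the pairs compare genes of unlike counting. The core gene was the more abundant per kb in 3 pairs: RPL22 stood 34.0 times over RPL22L1 in knockout and 34.2 times in control, RPL26 19.1 times over RPL26L1 in knockout and 19.5 times in control, and RPL39 10.4 times over RPL39L in both groups.

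Other genes of translation moved little and in both directions. Beside the counts of the lists below, 7.69% of all genes fell and 5.95% rose over all libraries. Without knockout replicate 3, 11.1% of all genes fell and 10.4% rose. A list of 3 further components of the ribosome gave 0 calls. It holds FAU, which encodes a ribosomal protein fused to a ubiquitin-like protein, and RACK1, a 40S scaffold. FAU had 3077, 3649 and 3081 in knockout libraries, against 4635, 4036 and 3694 in control libraries (log2 fold change -0.33 ± 0.10, limma adjusted p = 0.0537). RACK1 was at -0.29 ± 0.09 (limma adjusted p = 0.0585), and fell by 0.19 with knockout replicate 3 left out (limma adjusted p = 0.0272). Of 14 elongation and termination factors, 2 rose and 1 fell, or 3 and 1 without knockout replicate 3. EIF5A2, an isoform of the hypusinated factor eIF5A, had 363, 388 and 471 in knockout libraries, against 223, 243 and 269 in control libraries, and rose by 0.72 ± 0.12 (limma adjusted p = 0.00529). GSPT1, the release factor eRF3a, rose by 0.28, and EEF1D, an exchange factor of eEF1A, fell by 0.42 (limma adjusted p = 0.0354 and 0.0422). Of 43 initiation factors, 0 rose and 3 fell: EIF5, the GTPase activator of eIF2 (-0.38 ± 0.07, limma adjusted p = 0.00901), EIF1B (-0.36, limma adjusted p = 0.0319) and EIF3G (-0.37, limma adjusted p = 0.0338). Without knockout replicate 3 the count was 7 risen and 5 fallen, and the shares called over all genes were larger there too.

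Of 53 genes of ribosome assembly and RNA polymerase I, 1 rose, WDR12, a subunit of the PeBoW complex (0.30 ± 0.08, limma adjusted p = 0.0385), and 0 fell. The median of that list was 0.02, and 6 rose and 0 fell without knockout replicate 3, where 10.4% of all genes rose and 11.1% fell. Of 15 regulators of ribosomal protein translation, 0 rose and 2 fell (1 and 3 without knockout replicate 3), the 2 being in the mTOR pathway: AKT1S1, which encodes the mTORC1 inhibitor PRAS40 (-0.31, limma adjusted p = 0.0338), and TSC2, a GTPase activator that restrains mTORC1 (-0.41, limma adjusted p = 0.0434). Of 14 dedicated chaperones and assembly partners, 0 passed, against 1 risen and 1 fallen without knockout replicate 3; the nearest were RRP15 (0.20, limma adjusted p = 0.086) and NACAD (-0.30, limma adjusted p = 0.113). With GC and length trends removed, EEF1D (limma adjusted p = 0.164), EIF3G (0.136), WDR12 (0.34) and AKT1S1 (0.967) were no longer past the threshold.

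Markers of cell identity moved too, in these same libraries, where 5.95% of all genes rose and 7.69% fell (10.4% and 11.1% without knockout replicate 3). Of 15 neuron markers, 4 rose and 2 fell, or 8 and 2 without knockout replicate 3. SLC17A7, a glutamate transporter, had 6512, 6439 and 6760 in knockout libraries, against 4710, 4632 and 4104 in control libraries. The 2 that fell were TUBB3, whose low counts are given near the start, and RBFOX3. Sequence that TUBB3 shares with other genes was not examined. RBFOX3 had 1303, 1458 and 1337 in knockout libraries, against 1922, 1777 and 1561 in control libraries (log2 fold change -0.36, limma adjusted p = 0.0313). With GC and length trends removed, 3 neuron markers rose and 0 fell, where 8.66% of all genes rose and 7.23% fell. RBFOX3 was then at -0.14 (limma adjusted p = 0.125). Of 5 pluripotent cell markers measured, 3 rose and 0 fell. LIN28A, an RNA-binding protein of stem cells, had 652, 624 and 812 in knockout libraries, against 318, 321 and 339 in control libraries. DNMT3B, of the same list, went the other way, at 121, 131 and 121 in knockout libraries, against 182, 149 and 159 in control libraries. It did not pass (log2 fold change -0.38, limma adjusted p = 0.0596), and neither did DPPA4 (0.13, limma adjusted p = 0.725). The summed pluripotent markers were 3685 to 4461 in knockout and 2758 to 2974 in control libraries. POU5F1, NANOG, ZFP42, TDGF1, L1TD1 and ESRG, also on the pluripotent list, were not found by symbol among the 16625 genes. Of 10 progenitor and cycling markers, 2 rose and 1 fell (3 and 1 without knockout replicate 3), with sums of 30756 to 34278 in knockout and 28629 to 30567 in control libraries. Of 8 glial markers 1 rose and 0 fell, with sums of 616 to 631 in knockout and 480 to 506 in control libraries. Of 4 mesenchymal and endothelial markers 1 rose and 1 fell, with sums of 96.2 to 194 in knockout and 161 to 193 in control libraries. The counts of the pluripotent, glial and mesenchymal lists were the same without knockout replicate 3. Not found by symbol either were HES1 and HES5 of the progenitor list, and GFAP, ALDH1L1 and SOX10 of the glial list. The same held for COL1A1, ACTA2, PECAM1, CDH5, DCN, LUM and TWIST1 of the mesenchymal and endothelial list. In bulk RNA fewer cells of a type and less RNA per cell cannot be told apart, and the part of these markers in the ribosomal protein values was not tested.

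The members varied together. Over the 6 libraries, centred within each group, 41 of the 83 genes had a Pearson correlation over 0.9 with the mean of the set, against 8.43% of the other genes, and the median was 0.90. This is a description over 6 libraries that share depth and scaling and of which 1 stands apart. Among 11364 genes outside the set that averaged at least 100 normalized counts, the 5 most like it by this measure were RND2, HSD17B10, IP6K2, CCDC59 and CD55, each at 0.998 to 1.00. None of them passed the threshold between the groups.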

How the data were processed

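Per the labels' protocols, polyA RNA (500 ng total RNA, stranded mRNA kit) was read as single-end 100-base reads. STAR 2.7.10b, DESeq2 and GRCh38 are named in GEO, per the submitters' processing notes. The counting tool and annotation are details not given in the sources used here. What the authors deposited is a normalized signal, reads scaled by 1 factor per library; 100% of values were whole multiples of it (tolerance 1e-06), so reads were recovered. For each gene the authors also deposited a Wald score, a log2 fold change and its p-value, with no adjusted p-value in 1612 of them.

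Here limma 3.58.1 (R 4.3.3) was fitted to log2(normalized count + 1) of all 16625 genes, with eBayes moderation along a variance trend and p-values adjusted by Benjamini-Hochberg. Fold changes on this scale understate those of low genes. Alternatives were other scalings, pseudocounts of 0.5 and 5, count filters of 10 and 100, edgeR 4.0.16 and DESeq2 1.42.0 on recovered reads, a replicate block, library weights, removal of GC and length trends (natural splines with 4 degrees of freedom, GENCODE 29, 96.5% of genes) and leaving out each library. Those added after seeing the data fitted the trends on other genes, on GC alone, on length alone, or without PEDS1 knockout replicate 3. The fit was also run on simulated counts, drawn independently for each gene and library. They held no outlying library and no GC or length trend, so they do not test the fit under those features. Precision is set by 3 libraries per group.

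The set, though defined by symbol, and the lists were proposed with earlier results of these data known. Named genes are those past the threshold, the 3 highest and 3 lowest fold changes, the 4 highest and 4 lowest levels per kb, paralog pairs, genes of known role, the genes beside the threshold and up to 4 called genes of each other list, or 2 where none passed. Promoter sequences are those of RefSeq. Some genes that this rule selects are left out of the text and figures and are not reported here.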

Additional observations from a re-analysis of the deposited data

How the results depend on the processing

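The median fold change of the set stayed below 0 in all alternatives, at -0.26 to -0.08 when 1 library was left out and -0.04 with trends and knockout replicate 3 both left out (7 genes lower, 3 higher), and the difference in read share, in percentage points, at -0.27 to -0.08. The count of 8 genes became 4 with no variance trend, 32 with library weights (3 higher, 29 lower), 4 at adjusted p under 0.01, 18 at 0.1 and 3 to 18 when 1 library was left out. Library weights gave control replicate 2 a weight of 11.1 and PEDS1 knockout replicate 3 one of 0.19, so that setting leans on few libraries. The labels do not say whether replicate numbers pair the libraries. Deviations from the group means had correlations of -0.12, 0.01 and -0.06 between libraries of the same number. With 3 libraries per group this cannot decide whether they were paired. The replicate block gave 6 genes of the set, 5 translation list genes and 1560 genes in all. Over all genes the count of 2269 became 1105 with no variance trend, 6614 with weights, 640 at 0.01, 3844 at 0.1, 582 to 3577 when 1 library was left out, and 4600 with trends and knockout replicate 3 both left out. The 9 calls of the translation lists became 2, 52, 2 and 24 under the same first 4 settings, 18 with DESeq2 and in the authors' deposited table, 17 with the length trend removed, 1 (without control replicate 2) to 28 (17 higher, 11 lower, without knockout replicate 3) when 1 library was left out, and 42 with trends and knockout replicate 3 both left out. PEDS1 passed with quantile scaling (-0.52), CPM scaling (-0.55), weights (-0.70), DESeq2 and the authors' deposited table (-0.48), the replicate block with trends removed (-0.46), and without knockout replicate 3 (-0.77, or -0.70 with trends removed), with -0.77 to -0.37 when any 1 library was left out. The cause of these moves was not tested.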
